A study of Mus musculus with 18 samples.

Results

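The comparison was between the pancreas of KPC mice and the pancreas of wild-type (WT) mice, both 20 weeks old, across all genes that passed a filter on low counts. It used 13 of the 18 mice of the study, 6 WT and 7 KPC, with 1 bulk RNA library from the snap-frozen pancreas of each mouse. The strain background of all mice was mixed, 129Sv x C57BL/6, and they were kept under specific-pathogen-free conditions. KPC is the name in common use for mice in which pancreatic cells carry tumour-promoting alleles, a mutant or deleted Trp53 among them, switched on by a Cre recombinase. The labels used here give neither the alleles, the Cre driver nor the sex of the mice. The other 5 mice, labelled KPC ASC KO, helped to estimate the spread between mice and entered no contrast. Loss of acinar digestive enzymes and gain of macrophage genes were already known for these samples, so the description covers the other genes.

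As background, acinar cells make up most of a normal pancreas and secrete large amounts of enzyme, for which they keep a dense endoplasmic reticulum (ER), many mitochondria and a high rate of amino acid use. In KPC mice, acinar cells convert to duct-like cells and precursor lesions form, which can progress to ductal carcinoma. Fibroblasts, leukocytes and collagen-rich matrix gather around the lesions. In bulk tissue, fewer cells of a type and less RNA per cell cannot be told apart.

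Each library counted unique molecular identifiers (UMIs), short random tags that mark single RNA molecules. Totals were low, 294077 to 416879 UMIs in the WT libraries and 452472 to 1626977 in the KPC libraries. The acinar enzyme genes, the defining markers of the tissue, held 51.7% to 62.7% of UMIs in WT and 4.68% to 42.7% in KPC libraries. The highest of the KPC values belonged to mouse 48. Processed pseudogenes held 2.97% to 5.24% of UMIs in WT and 5.43% to 10.8% in KPC. The summed level of 18 B cell markers was 244 to 467 CPM (UMIs of the gene scaled to a common library total) in WT, and 2864 to 5735 in KPC mice 40, 89, 145 and 154 against 287 to 738 in KPC mice 43, 48 and 210. Results are therefore also given without those 4 mice, which were singled out after their values were seen, for the lists with more than 5 calls whose count that fit moved by over 1.5 times. The fit rests on 3 KPC mice and called 728 genes, 385 higher and 343 lower. Leaving the 4 mice out also changed the acinar share of the KPC group. Acinar enzyme genes held 42.7% of UMIs in mouse 48, 28.5% in mouse 210 and 4.68% in mouse 43, against 7.64% to 25.6% in the 4 mice. The parts of B cell markers and acinar share in the results of that fit were not told apart. Transcripts typical of stomach were found in every library, such as Tff1 with 307 to 1782 UMIs in WT and 1177 to 3564 in KPC. The Tff1 values are raw UMIs, not scaled to the library totals, which were larger in KPC. They show presence and do not compare levels between the groups. Xist and Y-linked transcripts were also found together in every library. The part of any of these in the results was not tested.

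**Figure D1:**
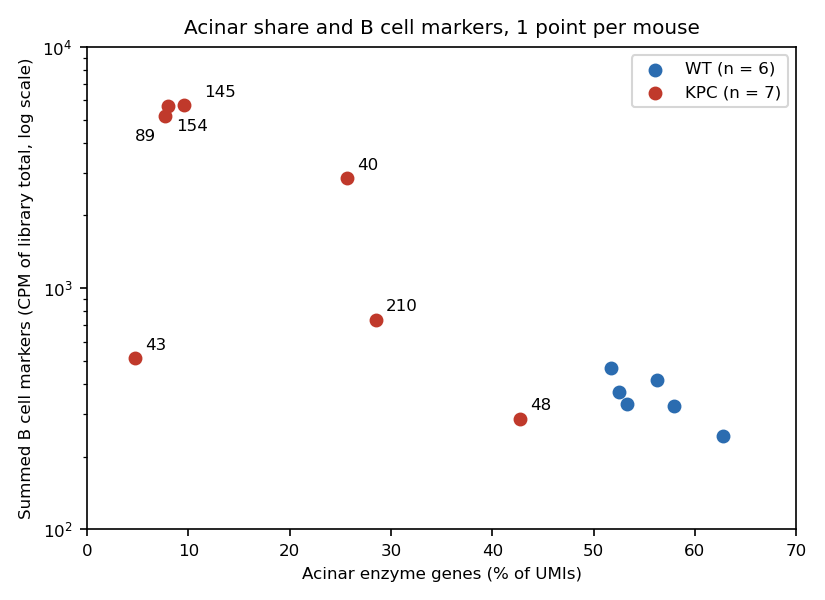
Share of UMIs from acinar enzyme genes (x axis, percent) against the summed CPM of 18 B cell markers (y axis, log scale), 1 point per mouse with its number beside KPC points. The 6 WT mice sit together at 51.7% to 62.7%, and 4 KPC mice lie at 2864 to 5735 CPM of B cell markers while KPC mice 43, 48 and 210 lie below 740.

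Of 25651 genes in the table, 6920 passed the filter and were tested with edgeR's quasi-likelihood test, and 2070 of them (29.9%) differed between KPC and WT at an adjusted p under 0.05. Of these, 1023 were higher in KPC (14.8% of genes tested) and 1047 were lower (15.1%). A gene is called higher or lower below only where it passed this test. Differences are log2 values, KPC minus WT, after scaling by trimmed means (TMM), and a level is in CPM of the TMM-scaled library. The median difference over all genes tested was 0.06, with quartiles of -0.42 and 0.60. In 613 genes (8.86%) no KPC mouse overlapped any WT mouse. With library totals as the only scaling, the median of all genes moved to 1.41 and 96.9% of calls were higher, so every difference below is relative to the other genes of the same libraries. Lists of genes with a known role are described by their counts and median beside these figures.

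**Figure D2:**
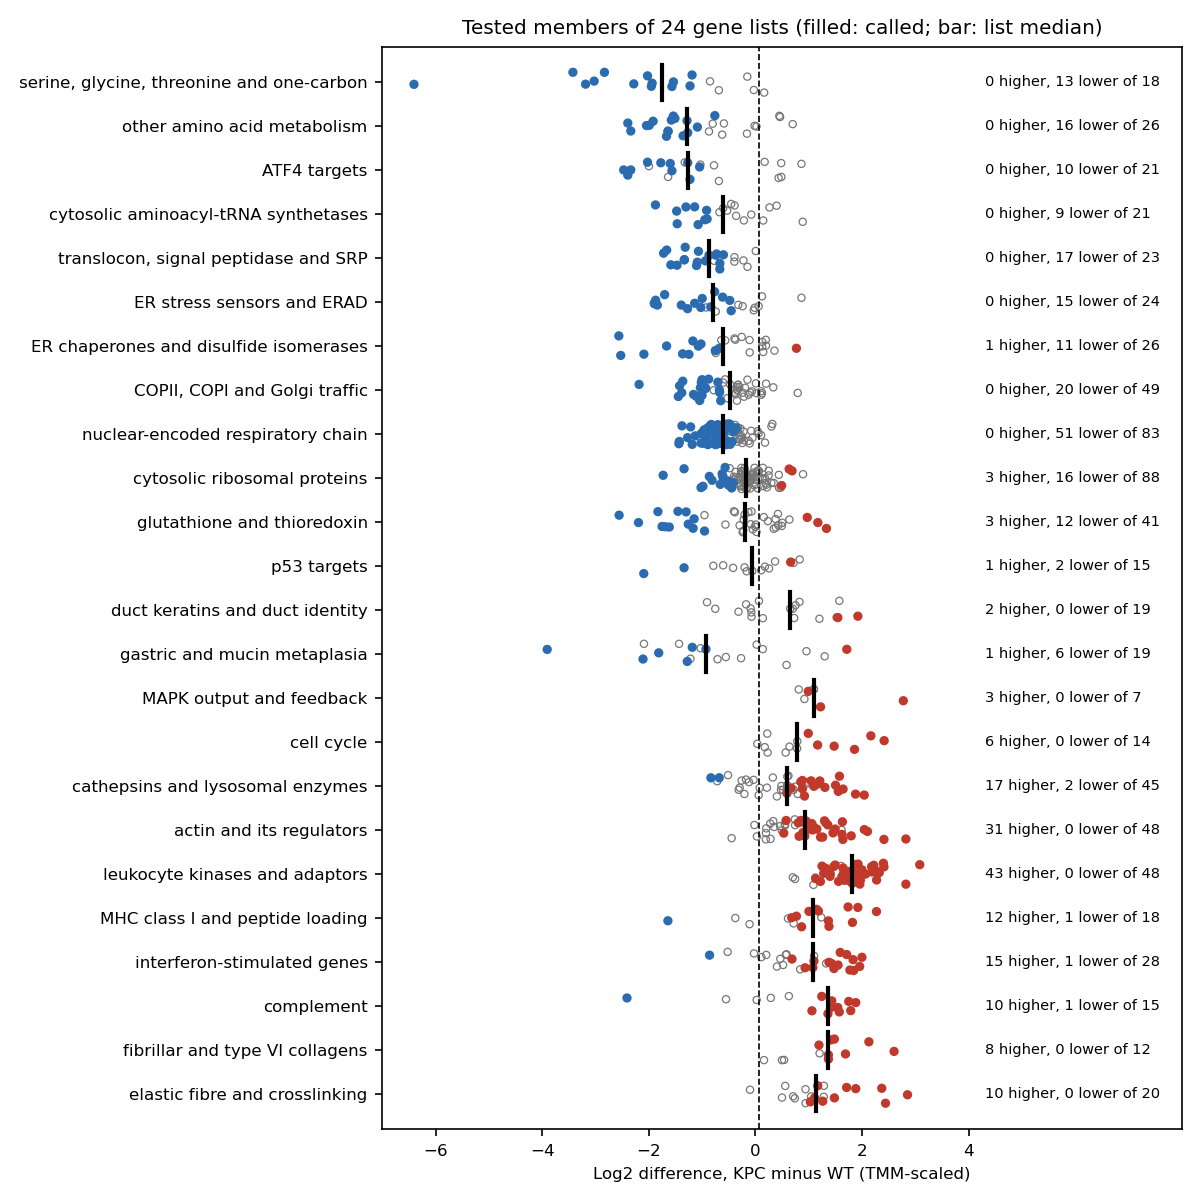
Log2 difference, KPC minus WT (x axis), of the tested members of 24 gene lists, 1 point per gene, filled where the gene was called and open where it was not, with a bar at the list median and a dashed line at the median of all 6920 genes (0.06). Amino acid, ER and respiratory chain lists lie left of the line and immune, matrix and actin lists right of it; with library totals only, the whole scale shifts by more than 1 log2 unit and several of the left-hand medians turn positive.

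Trp53 (ENSMUSG00000059552, chromosome 11, 69580359 to 69591873, GRCm38), which encodes the p53 tumour suppressor, had a lowest, median and highest level of 3.45, 8.94 and 20.2 CPM in WT and 16.9, 28.6 and 36.7 CPM in KPC. The ranges overlapped in part, with the KPC mice mostly above, and the difference was 1.48 (SE 0.41, adjusted p = 0.00937 by edgeR). Without KPC mice 40, 89, 145 and 154 it was 1.45 with an adjusted p of 0.0585. Counts per gene do not separate mutant from wild-type alleles, so this value does not check the genotype.

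Enzymes that make, break down and interconvert amino acids were lower in most cases. Of 18 tested genes of serine, glycine, threonine and one-carbon metabolism, 13 were lower (15.1% of all genes tested were) and 0 higher. In 8 of them every KPC mouse was below every WT mouse (5.09% of all genes), and the list median was -1.75 (-0.54 with library totals only). Tdh (ENSMUSG00000021953, chromosome 14, 63492347 to 63509092), the mitochondrial threonine dehydrogenase that starts the conversion of threonine to glycine, fell the most of all named genes. Its lowest, median and highest levels were 76.9, 109 and 199 CPM in WT and 0, 1.80 and 7.50 CPM in KPC, a difference of -6.40 (SE 0.66, adjusted p = 2.17e-05). No KPC value came near the WT range. Cbs, which joins homocysteine to serine, was at 192, 224 and 327 CPM in WT and 4.78, 7.79 and 106 CPM in KPC, a difference of -3.42 (adjusted p = 0.00126). Gnmt, the glycine methyltransferase that sets the level of the methyl donor S-adenosylmethionine, went from 110.3, 149 and 179 to 3.73, 14.4 and 69.6 CPM, and Gamt, the last enzyme of creatine synthesis, from 346, 406 and 578 to 20.2, 26 and 187 CPM. Both groups were apart in each of these genes, with differences of -3.19 for Gnmt and -2.83 for Gamt. Phgdh, the first enzyme of serine synthesis from glucose, was lower as well, at -2.02 (adjusted p = 0.00415). Without the 4 KPC mice rich in B cell markers 4 of the 18 genes were lower, and the median was -1.28.

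Of 26 other tested genes of amino acid metabolism, 16 were lower and 0 higher, with a median of -1.28 that became 0.05 with library totals only, and 5 were lower without the 4 mice. The branched-chain ketoacid dehydrogenase, which commits leucine, isoleucine and valine to breakdown, had 2 of its subunits among them. Bckdha was at 93.3, 146 and 153 CPM in WT and 24.6, 30.8 and 60.0 CPM in KPC (-1.92, SE 0.23, adjusted p = 2.17e-05). Dbt was at 42.4, 70.4 and 116 CPM in WT and 14, 18.1 and 28.8 CPM in KPC (-1.99, adjusted p = 7.25e-05). The groups were apart for both subunits. Odc1, the first enzyme of polyamine synthesis, was lower by -1.67 and did not pass with library totals only. Among 14 amino acid transporters, 8 were lower and 3 higher, against 3 lower and 6 higher with library totals only (median -0.89, then 0.34) and 1 of each without the 4 mice. Slc7a8, an exchanger of neutral amino acids, differed by -2.72 (adjusted p = 0.000271), and Slc38a5, a glutamine transporter, by -3.48 (adjusted p = 0.00261). The taurine transporter Slc6a6 went the other way, from 47.6, 58.5 and 67.1 CPM in WT to 99.5, 122 and 203 CPM in KPC (1.24, adjusted p = 0.000857).

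ATF4 is a transcription factor that raises amino acid synthesis genes when translation is restrained under stress, by binding the C/EBP-ATF response element. Of 21 tested genes on a list of its known targets, 10 were lower and 0 higher, with a median of -1.27 (-0.02 with library totals only). Without the 4 mice 1 was lower and the median was -0.89. The list shares genes such as Asns and Phgdh with those above. Asns, asparagine synthetase, was at 232, 314 and 358 CPM in WT and 15.9, 32.3 and 192 CPM in KPC (-2.34, SE 0.50, adjusted p = 0.00302). Pycr1, the mitochondrial proline enzyme, was at 44.8, 116 and 131 CPM in WT and 5.29, 13.8 and 72 CPM in KPC (-2.39, adjusted p = 0.0011). In that fit the adjusted p-values were 0.0673 for Asns and 0.0839 for Pycr1. Eif4ebp1, a translational repressor, was lower by -1.60, from 294, 345 and 405 to 65.6, 79.5 and 262 CPM. The response element, searched as TGATGNAA on both strands in the 250 bases before and 50 bases after each RefSeq gene start (GRCm38.p6), was in 10 of 27 list members with a window (37.0%) and in 1304 of 32851 windows in all (3.97%). A member was counted if any of its windows held the motif, so the first share is per gene and the second per window, which are unlike measures. The pair below is shown because both genes fell and both hold the motif upstream of the start; capitals mark the motif, and the stretches are chr6:7693210-7693272 (reverse strand) and chr11:120643804-120643891 (reverse strand).
Asns: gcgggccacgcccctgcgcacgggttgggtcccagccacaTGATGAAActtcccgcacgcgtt
Pycr1: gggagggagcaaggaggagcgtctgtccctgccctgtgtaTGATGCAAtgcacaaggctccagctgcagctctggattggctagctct
Of the 10 members with the motif, 3 were lower, 3 did not pass and 4 were not tested, with a median difference of -1.89 over the tested ones. Of the 17 without it, 5 were lower, 7 did not pass and 5 were not tested, with a median of -0.86. The match says only that these letters are in the window.

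Cytosolic aminoacyl-tRNA synthetases, which load amino acids onto tRNAs, had 9 of 21 tested genes lower and 0 higher, with a median of -0.61 that became 0.68 with library totals only, and 4 were lower without the 4 mice. Mars1, the methionine enzyme, was at 31, 49.6 and 82 CPM in WT and 10.1, 14.4 and 21.4 CPM in KPC, without overlap (-1.88, SE 0.27, adjusted p = 6.26e-05). Nars, the asparagine enzyme, was lower by -1.30, and neither it nor Mars1 passed with library totals only. Of 88 cytosolic ribosomal protein genes, 16 were lower and 3 higher, with a median of -0.17, and 3 were lower and 0 higher without the 4 mice. Calls made up 21.6% of this list against 29.9% of all genes tested. Higher calls were rarer than the 14.8% of all genes. Rplp1, an acidic stalk protein of the large subunit, stood apart from that median: it was at 1644, 3331 and 4004 CPM in WT and 565, 922 and 1243 CPM in KPC (-1.73, adjusted p = 2.76e-05). Ribosomal protein genes have many processed pseudogenes, so reads could be divided between copies, which was not tested. The share of UMIs given above covers processed pseudogenes of all genes, not only of these.

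The machinery of protein secretion was lower in many of its steps. Of 23 tested genes for the translocon, signal peptidase and signal recognition particle, which bring new proteins into the ER, 17 were lower and 0 higher, and the median was -0.87 (0.46 with library totals only). Srpr, the alpha subunit of the receptor that docks the particle at the ER, was at 180.3, 289 and 318 CPM in WT and 62.3, 72.7 and 144 CPM in KPC (-1.67, SE 0.22, adjusted p = 3.57e-05). Sec62, part of the translocon, was at 308, 412 and 471 CPM in WT and 79.2, 133 and 228 CPM in KPC (-1.47, adjusted p = 6.26e-05). The groups did not overlap in either gene. With the 4 mice left out, 9 of the 23 genes were lower and the median was -0.77. Of 24 genes for ER stress sensing and ER-associated degradation, 15 were lower and 0 higher, with a median of -0.80 (0.48 with library totals only, and 4 lower without the 4 mice). Eif2ak3, which encodes the stress kinase PERK, was at 46.6, 64.3 and 112 CPM in WT and 15.5, 21.7 and 28.8 CPM in KPC (-1.70, adjusted p = 0.000244). Edem2, which trims mannose from misfolded glycoproteins, was lower by -1.90 (adjusted p = 0.000857). With library totals only, Srpr, Sec62 and Eif2ak3 did not pass.

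ER chaperones and disulfide isomerases, which fold the proteins that enter, did not move as a block: of 26 tested, 11 were lower, 1 was higher and 14 did not pass, with a median of -0.60 (0.66 with library totals only, and 3 lower and 0 higher without the 4 mice). Fkbp2, a prolyl isomerase, was at 217, 259 and 359 CPM in WT and 52.2, 79.7 and 149 CPM in KPC (-1.67, adjusted p = 0.000105). Ero1lb, the ER oxidase also named Ero1b, was at 229, 267 and 381 CPM in WT and 10.3, 43.7 and 139 CPM in KPC (-2.53, SE 0.54, adjusted p = 0.00297). Both genes had groups that did not overlap. Hspa5, the Hsp70 chaperone BiP, was at 372, 538 and 711 CPM in WT and 212, 255 and 689 CPM in KPC, and its difference of -0.75 (adjusted p = 0.0224) turned to 0.46 with library totals only. Its call was lost without WT mouse 69, 1237 or 1238, with adjusted p up to 0.0619, and without the 4 mice (-0.49, adjusted p = 0.32), and KPC mouse 48 was far above the other KPC mice. Calr, a lectin chaperone, at 227, 283 and 364 CPM in WT and 187, 257 and 466 CPM in KPC, did not pass (adjusted p = 0.675; its difference of -0.11 was 1.15 with library totals only), nor did Hsp90b1 (adjusted p = 0.427).

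The ER stress element, through which ATF6 and XBP1 act on chaperone genes, was searched as the letters CCAAT and CCACG with any 9 bases between them, on both strands of the same windows. It was found in 8 of 26 list members with a window (30.8%) against 39 of 32851 windows in all (0.119%). Here too the first share is per gene and the second per window. Below are 2 members that were lower, Ero1b and Dnajc3 (an Hsp40 partner of BiP, -1.07 but 0.13 with library totals only, and adjusted p = 0.162 without the 4 mice), then Hspa5, and Calr, which did not pass; capitals mark the element, which lies on the opposite strand in Ero1b and Calr. The stretches are chr13:12565642-12565740, chr14:118937787-118937885 and chr2:34771985-34772083 on the forward strand and chr8:84847035-84847133 on the reverse strand.
Ero1b: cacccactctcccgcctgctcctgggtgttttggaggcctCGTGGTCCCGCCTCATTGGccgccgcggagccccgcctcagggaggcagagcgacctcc
Dnajc3: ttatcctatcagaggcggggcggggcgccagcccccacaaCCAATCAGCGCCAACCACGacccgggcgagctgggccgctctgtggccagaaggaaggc
Hspa5: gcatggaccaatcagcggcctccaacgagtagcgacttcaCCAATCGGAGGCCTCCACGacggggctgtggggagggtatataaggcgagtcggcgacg
Calr: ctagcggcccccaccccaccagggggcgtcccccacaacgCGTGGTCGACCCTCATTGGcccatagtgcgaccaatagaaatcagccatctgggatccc
Members with the element were lower in 3 cases and not called in 5, with a median difference of -0.48. Members without it were lower in 8 cases, higher in 1, not called in 6 and not tested in 3, with a median of -0.68. The element was thus present in members that fell and in members that did not pass.

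Beyond the ER, 20 of 49 genes of COPII, COPI and Golgi traffic were lower and 0 higher, with a median of -0.48 (0.85 with library totals only, and 9 lower without the 4 mice). Copz2, a coatomer subunit, was at 152, 194 and 217 CPM in WT and 15.5, 41.4 and 91.2 CPM in KPC (-2.18, SE 0.34, adjusted p = 0.000208). Of 9 p24 cargo receptors 5 were lower, and of 27 genes of N-glycan synthesis and transfer 8 were lower and 2 higher (3 and 2 without the 4 mice). The subunits of the oligosaccharyltransferase that carry thiol oxidoreductase activity went in opposite directions: Magt1 went from 169, 216 and 227 CPM in WT to 52.9, 68.3 and 134 CPM in KPC (-1.44, adjusted p = 6.3e-05), while Tusc3 went from 4.24, 10.3 and 20.2 to 23.4, 38.8 and 49.1 CPM (1.70, adjusted p = 0.000557). No KPC value of either gene lay within the WT range. With library totals only, Magt1 was at -0.18 and did not pass, and Tusc3 was at 3.04.

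**Figure D3:**
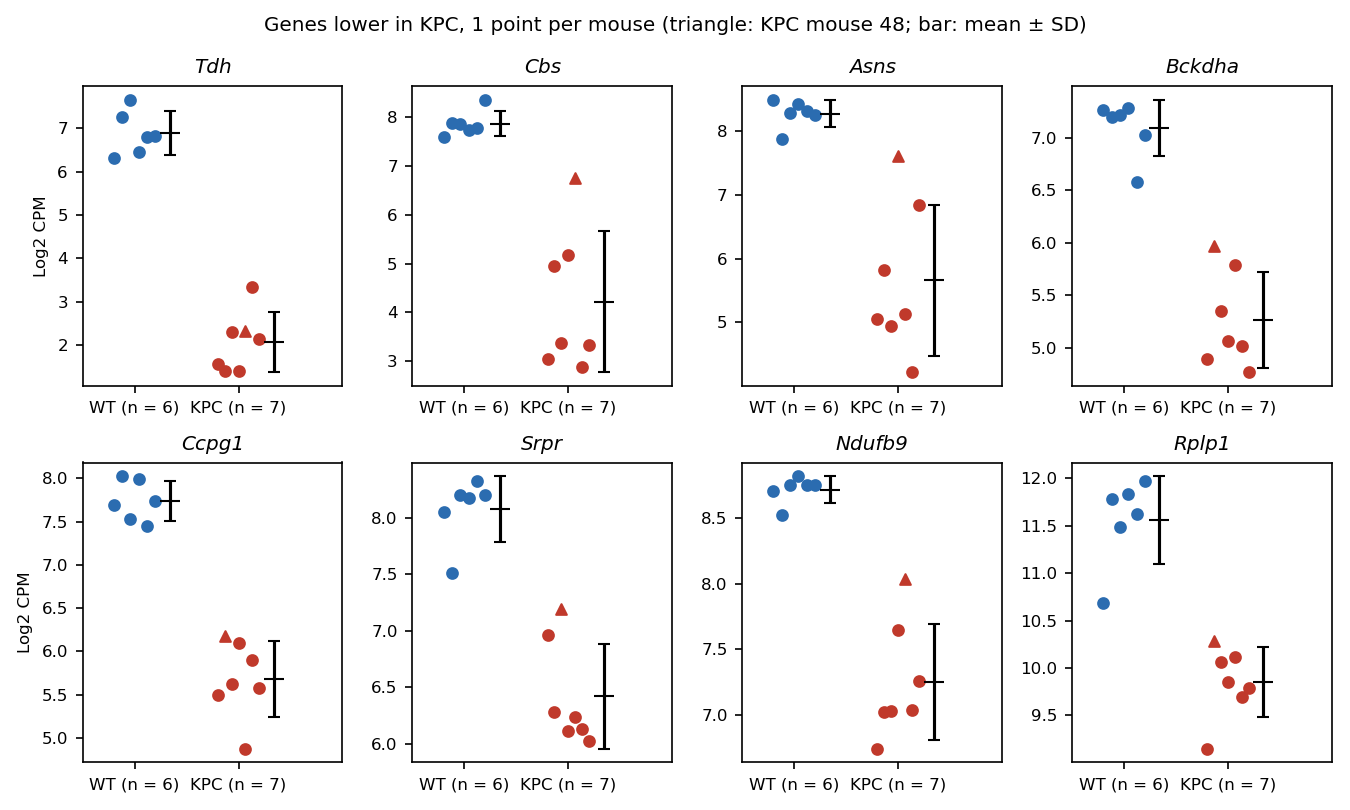
Log2 CPM (y axis, TMM-scaled, prior count of 2) of 8 genes that were lower in KPC, 1 point per mouse, with a bar at the mean and whiskers of 1 SD. In Tdh, Bckdha, Ccpg1, Srpr, Ndufb9, Rplp1, Cbs and Asns every KPC mouse lies below every WT mouse, and the triangle for KPC mouse 48 is the highest KPC point in every panel but Tdh.

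Many transcripts of the mitochondrial respiratory chain were lower. Of 83 nuclear-encoded respiratory chain genes, 51 were lower and 0 higher, with a median of -0.60; with library totals only 54 were higher and 0 lower, with a median of 0.69 against 1.41 for all genes. In 18 of them every KPC mouse was below every WT mouse (5.09% of all genes). Ndufb9, an accessory subunit of complex I, was at 365, 428 and 448 CPM in WT and 104, 129 and 259 CPM in KPC (-1.44, SE 0.20, adjusted p = 5.19e-05). Uqcrq, of complex III, was at 351, 376 and 446 CPM in WT and 93.3, 132 and 221 CPM in KPC (-1.43, adjusted p = 5.69e-05). Of 13 mitochondrially encoded genes 7 were lower and 0 higher. Leaving out the 4 mice, 19 of the 83 genes were lower and the median was -0.51. Fewer genes of related pathways were called: 8 of 31 of the tricarboxylic acid cycle were lower, 9 of 24 of fatty acid oxidation were lower and 1 higher, and 12 of 65 mitochondrial ribosomal proteins were lower and 1 higher. Calls made up 25.8%, 41.7% and 20% of these lists, against 29.9% of all genes tested. The first and last lists were thus below the share of all genes. In the fit without the 4 mice 1, 1 and 3 genes of these lists were lower, and 0 mitochondrially encoded genes. Pdk1, the kinase that holds back pyruvate dehydrogenase, was lower, at 35.4, 41.1 and 75.9 CPM in WT and 8.39, 15.5 and 19.7 CPM in KPC (-1.74, adjusted p = 0.000134). Glycolysis and glucose transport had 3 of 13 genes higher (Ldha, Pfkp and Pgk1) and Tpi1 lower. Ldha, lactate dehydrogenase A, differed by 0.54 (adjusted p = 0.0138), which was lost without the 4 mice (adjusted p = 0.234).

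Glutathione and thioredoxin genes were mixed, with 12 of 41 lower and 3 higher (Gpx3, Mgst1 and Sod3), against 4 lower and 7 higher without the 4 mice. Gstm2, a glutathione transferase with close paralogs, was at 141, 164 and 208 CPM in WT and 29.2, 40.5 and 93.6 CPM in KPC (-1.75, adjusted p = 4.78e-05). Prdx4, the ER peroxiredoxin, was at 227, 279 and 313 CPM in WT and 37.3, 59.3 and 194 CPM in KPC (-1.83, adjusted p = 0.000754). Of 13 genes of iron and metal handling, Cp and Trf were higher and Ftl1, Mt1 and Slc39a5 lower. Cp, the copper-bearing ferroxidase ceruloplasmin, rose by 1.52, from 10.3, 35.6 and 42.4 to 54, 96 and 127 CPM, and Slc39a5, a zinc importer, went from 221, 261 and 344 to 3.42, 13.8 and 115 CPM (-3.21, adjusted p = 0.0021).

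Several of the lowest p-values among genes that fell belonged to genes on none of these lists. Padi2, which converts arginine in proteins to citrulline, was at 41.3, 63.4 and 80.6 CPM in WT and 6.53, 7.19 and 16.8 CPM in KPC (-2.85, SE 0.32, adjusted p = 2.04e-05). Prss8, the membrane-anchored serine protease prostasin, was at 133, 156 and 172 CPM in WT and 11.8, 24.7 and 54 CPM in KPC (-2.52, adjusted p = 2.76e-05). All KPC mice were below all WT mice in both. Ccpg1, Retreg1 and Reep5 encode membrane proteins of the ER, the first and second being receptors that mark ER for autophagy and the third shaping its tubules. Ccpg1 (ENSMUSG00000034563, chromosome 9, 72985429 to 73016340) was at 172, 207 and 258 CPM in WT and 26.7, 46.8 and 69.6 CPM in KPC (-2.10, SE 0.24, adjusted p = 2.04e-05). Retreg1 was at 126, 183 and 216 CPM in WT and 15.5, 25 and 74.4 CPM in KPC (-2.45, adjusted p = 3.2e-05), and Reep5 was lower by -1.66. The 3 genes had no overlap between groups and passed without the 4 mice and with library totals only. Further genes lower by p-value, each without overlap, were Tmem63b (-1.92), an ion channel opened by membrane stretch, Arfgef3 (-3.07), Entpd7 (-2.34), a nucleotide phosphatase of internal membranes, and the kinase Pim3 (-1.94). H2ac19 (-2.11), a histone gene, and Klk1b11 (-4.05), a kallikrein, belong to families of near-identical copies, so their counts are uncertain. Among the largest falls were Smim38 (-4.05), Psca (-3.76), Cdcp3 (-3.73), Dusp26 (-3.61), a phosphatase, and Atp2c2 (-3.53), a calcium pump of the secretory pathway. Hamp2, one of a pair of similar hepcidin genes, was at 823, 908 and 1030 CPM in WT and 5.91, 23 and 189.6 CPM in KPC (-4.16, adjusted p = 0.000722). Atp2c2 lost its call without the 4 mice (adjusted p = 0.0913).

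Few duct genes were called in this test. Of 19 tested duct keratin and duct identity genes, 2 were higher and 0 lower, below the background of 14.8% for higher genes. Their median of 0.65 lay above the upper quartile of all genes (0.60). DESeq2 called 4 higher and 1 lower, and limma-voom 1 of each. In thinned libraries 4 were higher, with the Y-linked covariate 5, and with library totals only 17 (median 1.94). Spp1, the secreted phosphoprotein osteopontin, which macrophages also make, was at 141, 167 and 185 CPM in WT and 214, 303 and 1068 CPM in KPC (1.54, SE 0.41, adjusted p = 0.00951). Onecut2, a transcription factor, was at 34.5, 49 and 111 CPM in WT and 72.1, 98.3 and 626 CPM in KPC (1.92, adjusted p = 0.0192). The spread among KPC mice was wide in both. Krt19, the standard duct keratin, was at 127, 187 and 272 CPM in WT and 85.7, 143 and 406 CPM in KPC and did not pass (0.14, SE 0.37, adjusted p = 0.807). Without the 4 mice, 9 of the 19 genes were higher and the median was 1.24. In that fit Krt19 was higher by 0.86 (adjusted p = 0.022) and Prom1, a marker of duct and progenitor cells, by 2.42 (adjusted p = 8.62e-05).

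Genes of gastric and mucin metaplasia, a change seen in early pancreatic lesions, had 6 of 19 tested members lower and 1 higher, with a median of -0.93 that turned to 0.38 with library totals only, and 1 was lower and 2 higher without the 4 mice. Tff2, a trefoil peptide that protects mucosa, was at 5895, 7045 and 10170 CPM in WT and 505, 1281 and 4219 CPM in KPC (-2.11, SE 0.41, adjusted p = 0.000831). Pgc, a gastric pepsinogen, was at 0, 53.5 and 378 CPM in WT and 1.501, 3.19 and 17.4 CPM in KPC (-3.91, adjusted p = 0.00259), with 1 WT library at 0 and an adjusted p of 0.106 without the 4 mice. Lyz1, the lysozyme of Paneth and gland cells, was higher by 1.71 (adjusted p = 0.00229; 0.115 without the 4 mice) and has a near-identical neighbour in Lyz2. The stomach transcripts named above were present in all WT libraries, and their source was not tested.

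Of 15 islet hormone and granule genes, 4 were lower and 0 higher, with a median of -1.23 (0.06 with library totals only). Gal, the neuropeptide galanin, was at 895, 1276 and 1893 CPM in WT and 14.3, 29.8 and 170.4 CPM in KPC (-4.75, SE 0.66, adjusted p = 0.000176), and no KPC mouse reached the WT range. Ins2, insulin, was at 943, 3360 and 8115 CPM in WT and 156, 303 and 2064 CPM in KPC, with overlap (-2.35, adjusted p = 0.0103). Sst, somatostatin, was lower by -2.81. The calls for Ins2 and Sst were lost without the 4 mice (adjusted p = 0.123 and 0.0728). Among 6 Reg family genes, which encode secreted lectins raised in pancreatitis, Reg1 was lower (-1.75, adjusted p = 0.0131; 0.238 without the 4 mice) and the others did not pass, with a list median of 1.10. Of 10 tuft cell genes only 3 were tested, and all 3 were higher; Dclk1, a tuft cell kinase, was at 0, 11.5 and 17 CPM in WT and 15, 29.2 and 72.8 CPM in KPC (1.77, adjusted p = 0.0104). Ptgs1, another of them, is also expressed by leukocytes. Of 17 junction genes, Cldn2 and Ctnna1 were higher and Cldn3, Cldn10 and Gjb1 lower. Cldn10, a paracellular ion channel, was at 15.4, 58.9 and 98 CPM in WT and 2.48, 7.46 and 24 CPM in KPC (-2.90, adjusted p = 0.000131).

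Pathways linked to pancreatic cancer were covered by short lists of tested genes. Of 18 MAP kinase cascade genes, 2 were higher and 2 lower. The output and feedback genes of that cascade, which it raises when active, had 3 of 7 tested genes higher and 0 lower, with a median of 1.09, and 18 of the 25 on the list did not pass the count filter. Ccnd1, cyclin D1, was at 66.7, 89 and 144 CPM in WT and 174, 183 and 205 CPM in KPC, without overlap (0.99, SE 0.20, adjusted p = 0.000928). Plaur, the urokinase receptor, was at 0, 1.70 and 4.24 CPM in WT and 9.94, 15.5 and 22.5 CPM in KPC (2.77, adjusted p = 0.00292), and Phlda1 was higher by 1.22 (adjusted p = 0.00862). Of 5 genes of the EGF receptor family, the acinar growth factor Egf was lower, at 24.1, 32.2 and 76.9 CPM in WT and 0.622, 3.73 and 12 CPM in KPC (-3.47, adjusted p = 0.000138), and Egfr did not pass (-0.58, adjusted p = 0.338).

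Known targets of p53 had a median of -0.06 over 15 tested genes, of which Bax was higher and Plk2 and Rps27l lower. Their differences ran from -2.10 to 0.83, and 17 of the 32 genes on the list were not tested. With library totals only 11 were higher and the median was 1.27. Bax, which opens the outer mitochondrial membrane in apoptosis, was higher by 0.66 (adjusted p = 0.0485), but this call did not survive leaving out any 1 of WT mice 69, 1197, 1202, 1213 and 1237, nor any 1 of KPC mice 40, 43, 89, 145 and 154, with adjusted p up to 0.118. Plk2 was at 27.6, 43.4 and 82.6 CPM in WT and 4.97, 7.20 and 22.5 CPM in KPC (-2.10, adjusted p = 0.000683). Cdkn1a, the p21 inhibitor, did not pass (0.11, adjusted p = 0.828). Of 12 targets and partners of the coactivator YAP, 4 were higher and 2 lower. F3, tissue factor, was at 0, 4.68 and 15.5 CPM in WT and 17.4, 21.4 and 45 CPM in KPC (2.24, adjusted p = 0.00564), Ccn2, a matricellular growth regulator, was higher by 1.81 (adjusted p = 0.0186) with KPC mouse 43 far above the rest, and the YAP partner Tead2 was at 113, 154 and 191 CPM in WT and 10.6, 22.8 and 76.8 CPM in KPC (-2.43, adjusted p = 0.000197). In the Wnt list 4 of 11 genes were higher and 0 lower, among them Sfrp1, a secreted Wnt antagonist, at 24.1, 32.4 and 51 CPM in WT and 82, 139 and 219.8 CPM in KPC (1.88, adjusted p = 0.000791). None of 5 Notch genes passed in edgeR or DESeq2, with 1 at an unadjusted p under 0.05, and none of 14 Hedgehog genes had enough counts to be tested.

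In the TGF-beta system 4 of 16 genes were higher and 0 lower. Tgfbr2, the ligand-binding receptor, was at 10.3, 20.5 and 25.6 CPM in WT and 43.2, 69 and 97.8 CPM in KPC (1.82, SE 0.29, adjusted p = 0.000169). Ltbp2, a microfibril protein of the family that holds latent TGF-beta, was at 0, 4.64 and 10.2 CPM in WT and 19.2, 36 and 50.5 CPM in KPC (2.85, adjusted p = 0.000111). Neither gene had overlapping groups. Tgfb1, a ligand, was higher by 2.37 (adjusted p = 0.00176; 0.0583 without the 4 mice). Of 14 tested cell cycle genes 6 were higher and 0 lower, and 28 of the 42 on the list were not tested. Top2a, the topoisomerase of dividing cells, was at 0, 4.70 and 20.2 CPM in WT and 12.4, 36 and 91.3 CPM in KPC (2.41, adjusted p = 0.00697). Without the 4 mice, Top2a was at 0.80 (adjusted p = 0.372) and 1 of the 14 genes was higher.

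**Figure D4:**
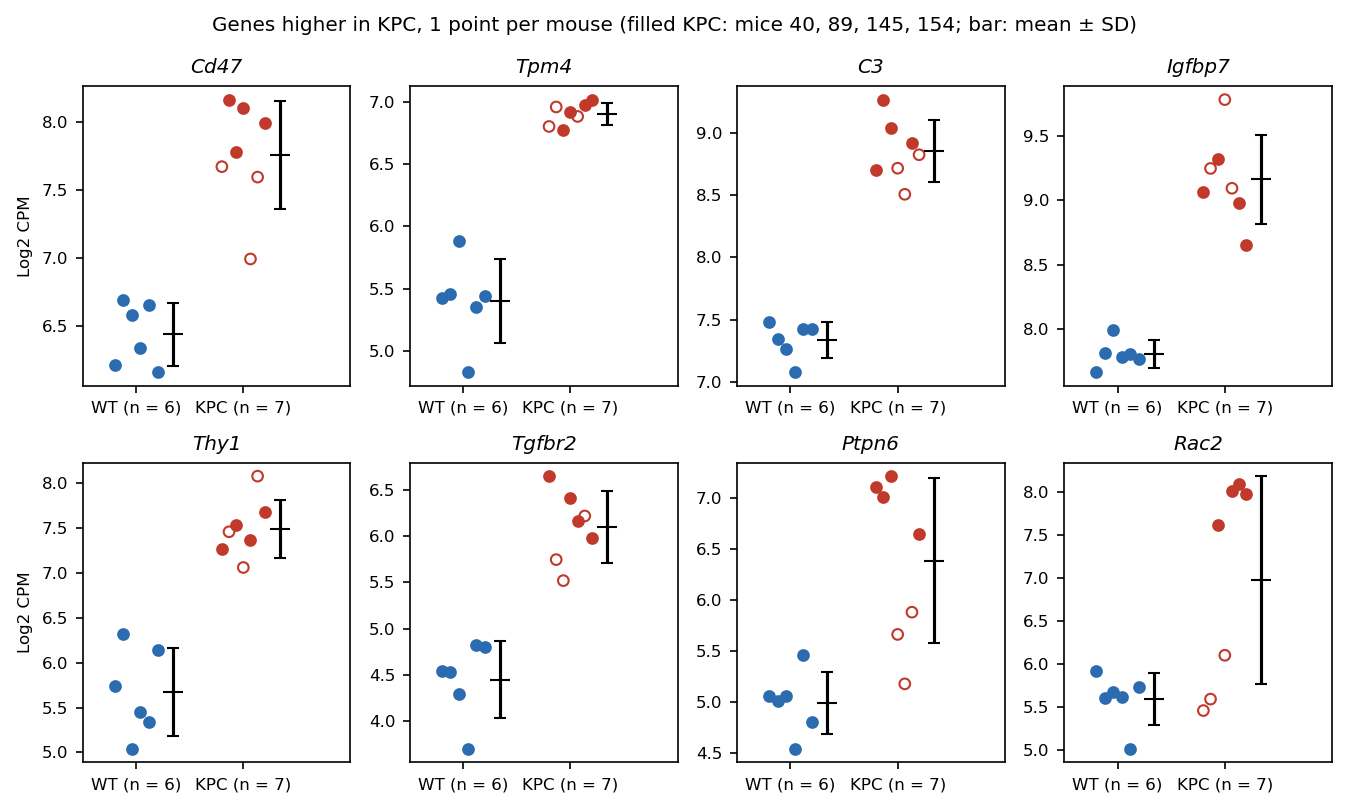
Log2 CPM (y axis, TMM-scaled, prior count of 2) of 8 genes that were higher in KPC, 1 point per mouse, with a bar at the mean and whiskers of 1 SD; filled KPC symbols are mice 40, 89, 145 and 154. Cd47, Tpm4, C3, Igfbp7, Thy1 and Tgfbr2 show no overlap between groups, while Ptpn6 and Rac2 overlap and their open KPC symbols (mice 43, 48 and 210) lie lower than the filled ones.

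Among the named genes that rose, the lowest p-value was that of Cd47 (ENSMUSG00000055447, chromosome 16, 49800533 to 49915010), a surface protein that restrains phagocytosis through the receptor SIRP-alpha. Its lowest, median and highest levels were 69, 85.8 and 101 CPM in WT and 125, 217 and 284 CPM in KPC, a difference of 1.38 (SE 0.19, adjusted p = 5.55e-05). Sirpa, the receptor, was at 10.2, 16.2 and 30.3 CPM in WT and 45.6, 66.3 and 87.7 CPM in KPC (1.72, adjusted p = 0.000602). Ligand and receptor were both without overlap, and without the 4 mice they differed by 1.02 for Cd47 (adjusted p = 0.00618) and 1.32 for Sirpa (adjusted p = 0.0272). Of 11 Fc and paired receptors 9 were higher and 0 lower, and 3 were higher without the 4 mice.

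Among immune genes beyond the macrophage markers, intracellular kinases and adaptors of leukocytes stood at the high end: of 48 tested, 43 were higher (14.8% of all genes tested were) and 0 lower, with a median of 1.81. Without the 4 mice 6 were higher and the median was 0.77, and with limma-voom on all mice 18 were higher with a median of 1.55. Fyb, an adaptor of integrin activation, was at 25.8, 30.7 and 45.5 CPM in WT and 60.0, 95.5 and 123 CPM in KPC, without overlap (1.56, SE 0.26, adjusted p = 0.000217; 1.38 and 0.00818 without the 4 mice). Ptpn6, the phosphatase SHP-1, was at 20.7, 30.1 and 41.3 CPM in WT and 33.6, 97.8 and 146 CPM in KPC (1.67, adjusted p = 0.000967; 0.67 and 0.148 without the 4 mice). Lpxn, Sla and Evl, other leukocyte adaptors, were among the largest rises at 3.08, 2.90 and 2.82, as were the inhibitory receptor Lair1 (2.89), the lymphocyte GTPase Gimap5 (2.76) and the oxidase subunit Ncf4 (2.99) and proton channel Hvcn1 (2.73). All 7 lost their calls with only 3 KPC mice left, with adjusted p from 0.0605 for Evl to 0.787 for Hvcn1. Their differences in that fit were 2.24 for Lpxn, 2.10 for Sla, 1.94 for Evl, 2.01 for Lair1, 1.95 for Gimap5, 1.59 for Ncf4 and 0.40 for Hvcn1. All 7 genes of the phagocyte NADPH oxidase, which makes superoxide, were higher, with a median of 1.80 that became 0.50 without the 4 mice, when none passed. Rac2, its small GTPase, went from 1.80 (adjusted p = 0.0118) to 0.10 (adjusted p = 0.897).

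B cell markers had 5 of 11 tested genes higher, with a median of 1.97 that turned to -0.71 without the 4 mice, and T and NK cell markers had 2 of 5 higher, with a median of 1.81 that turned to -0.61. The 4 mice were picked by their B cell markers, so the drop of the B cell median followed from that choice and is no separate result. Interferon-stimulated genes had 15 of 28 higher and Ifi27 lower, with a median of 1.09, and MHC class I genes had 12 of 18 higher and Psmb10 lower, with a median of 1.07. Without the 4 mice the medians were 0.54 with 1 higher and 0.13 with 0 higher. B2m, the light chain of class I, was at 267, 334 and 374 CPM in WT and 316, 823 and 1131 CPM in KPC (1.18, adjusted p = 0.00238), and without the 4 mice at 0.41 (adjusted p = 0.275). MHC class II genes had 9 of 10 higher, and 5 without the 4 mice; Cd74, the invariant chain, was at 215, 265 and 289.7 CPM in WT and 483, 1083 and 1460 CPM in KPC (1.93, adjusted p = 0.000186; 0.0121 without the 4 mice). Summed B cell markers were not compared with the other lists mouse by mouse, and their part in the results was not tested beyond leaving the 4 mice out.

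Complement genes had nearly the same median in that fit: 10 of 15 were higher and Vtn lower, with a median of 1.36, and without the 4 mice 9 were higher with a median of 1.34. C3, the central component, was at 133, 165 and 177 CPM in WT and 361, 450.2 and 612 CPM in KPC (1.54, SE 0.23, adjusted p = 8.05e-05). Serping1, the inhibitor of the first component, was at 88.5, 142 and 160 CPM in WT and 249.7, 346 and 472 CPM in KPC (1.36, adjusted p = 0.00189). No overlap was seen in C3 or Serping1. Vtn, vitronectin, was at 133, 242 and 350.5 CPM in WT and 4.97, 36 and 110.4 CPM in KPC (-2.41, adjusted p = 0.001). Of 22 genes of NF-kB and its feedback, 16 were higher and 0 lower, with a median of 1.41; without the 4 mice 2 were higher and the median was 0.75. Bcl3, an atypical inhibitor protein, was at 5.05, 16.6 and 25.6 CPM in WT and 39.2, 53.1 and 67.1 CPM in KPC (1.82, adjusted p = 0.000488). Chemokines and their receptors had 8 of 16 higher and 0 lower, with a median of 1.32, and 5 higher and 3 lower without the 4 mice, with a median of 0.65. Ccr2, the receptor of inflammatory monocytes, was higher by 2.63 and Cxcl14 by 1.90, and both passed without the 4 mice. Of 21 neutrophil genes only 3 were tested and none passed in edgeR, against 1 in DESeq2 and 2 at an unadjusted p under 0.05. S100a9, a neutrophil granule protein, differed by 1.71 (adjusted p = 0.12).

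**Figure D5:**
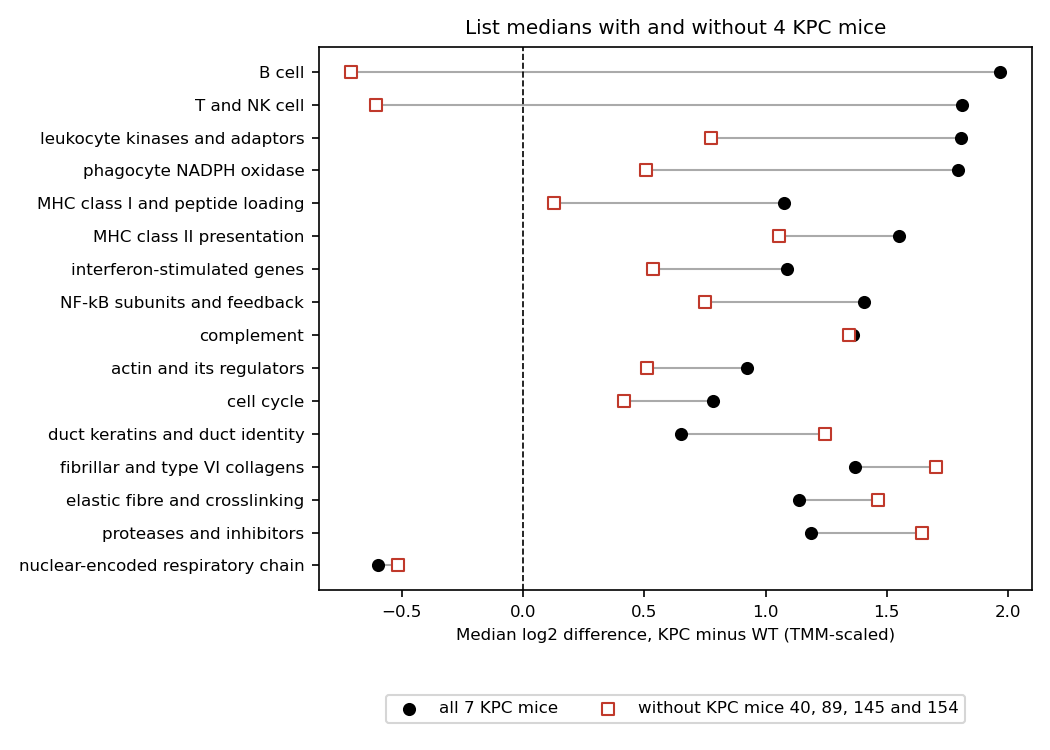
Median log2 difference, KPC minus WT (x axis), of 16 gene lists in the fit with all mice (filled circles) and without KPC mice 40, 89, 145 and 154 (open squares), with a dashed line at 0. The B cell and T and NK cell medians cross 0, the NADPH oxidase and MHC class I medians shrink, and the complement, collagen, elastic fibre and protease medians stay near or above their first value.

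Many matrix genes were higher. Of 12 fibrillar and type VI collagen genes 8 were higher and 0 lower (14.8% of all genes were higher, and 3.77% had every KPC mouse above every WT mouse), with a median of 1.37, and without the 4 mice 10 were higher with a median of 1.70. With all mice the type VI genes were not among the calls. Col6a1 (0.50, adjusted p = 0.244 by edgeR), Col6a2 (0.16, adjusted p = 0.793) and Col6a3 (0.54, adjusted p = 0.387) did not pass. Col1a2, of type I collagen, was at 165, 228 and 287 CPM in WT and 367, 609.6 and 837 CPM in KPC (1.42, SE 0.37, adjusted p = 0.00862). Col8a1, of a short-chain collagen, was at 0, 20.6 and 31 CPM in WT and 35.4, 73.9 and 134 CPM in KPC (2.13, adjusted p = 0.00341). Neither overlapped. Elastic fibre and crosslinking genes had 10 of 20 higher and 0 lower, and 14 higher without the 4 mice. In limma-voom 4 collagen genes and 2 elastic fibre genes were higher, with list medians of 1.37 and 1.06. Tgm2, the crosslinking transglutaminase, was at 41.4, 66.4 and 82 CPM in WT and 106, 118 and 194 CPM in KPC (1.03, adjusted p = 0.00176). Basement membrane genes had 4 of 14 higher, among them Col4a2 at 1.19 (adjusted p = 0.00509). Bgn, the proteoglycan biglycan, was at 131, 142 and 170.1 CPM in WT and 262, 442 and 766 CPM in KPC (1.60, adjusted p = 0.00156), one of 4 of 6 small leucine-rich proteoglycans that were higher.

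Of 14 matricellular genes, whose proteins signal from the matrix, 9 were higher and Vtn was lower. Thbs4, a thrombospondin, had the largest rise of the named genes, 3.19 (adjusted p = 0.0116), from 0, 0 and 10.3 CPM in WT to 3.73, 18 and 44.8 CPM in KPC, so most of its WT libraries held no or few UMIs. Postn, periostin, was at 0, 15.3 and 20.6 CPM in WT and 30.6, 39.1 and 56.3 CPM in KPC (1.80, adjusted p = 0.00196). Proteases and their inhibitors had 14 of 23 higher and 0 lower; Mmp14, a membrane collagenase, was higher by 1.45 and Adam8, a leukocyte and tumour sheddase, by 2.70. Igfbp7, a secreted binding protein of vessels and stroma, was at 200, 219 and 252 CPM in WT and 400.3, 543 and 877 CPM in KPC (1.40, adjusted p = 0.000106). Thy1, a surface glycoprotein of fibroblasts and T cells, was at 30.3, 46 and 77.4 CPM in WT and 131, 173 and 267 CPM in KPC (1.83, adjusted p = 0.000159), and without the 4 mice it differed by 1.89 (adjusted p = 0.00251). Both genes kept the groups apart.

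Genes of collagen processing were split: Serpinh1, the collagen chaperone, was higher along with Colgalt1 and Pcolce, while Ppib, P4hb and Mia3 were lower. These were out of 13 tested, with a median of 0.33. P4hb, the disulfide isomerase that is also the beta subunit of prolyl hydroxylase, was at 990.2, 1106 and 1238 CPM in WT and 247, 304 and 965 CPM in KPC (-1.37, adjusted p = 0.0015). With library totals only it was at -0.21 and did not pass.

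The actin cytoskeleton was higher in 31 of 48 genes and lower in 0, with a median of 0.92 (0.51 and 7 higher without the 4 mice). Tmsb10, an actin-sequestering peptide, was at 174, 199.5 and 258 CPM in WT and 326, 624 and 763 CPM in KPC (1.45, adjusted p = 0.000141). Arpc2, a subunit of the branching complex, was at 175, 229.6 and 237 CPM in WT and 293, 516 and 599.5 CPM in KPC (1.07, adjusted p = 0.000229). Both rose without overlap. Of 23 contractile and tropomyosin genes 10 were higher and 0 lower (4 higher without the 4 mice). Tpm4, a tropomyosin, was at 25.8, 40.6 and 56.4 CPM in WT and 107, 118 and 127 CPM in KPC (1.53, SE 0.22, adjusted p = 7.25e-05), with the KPC mice close together. Vim, the mesenchymal intermediate filament, was at 106, 134 and 220.5 CPM in WT and 281, 382 and 464 CPM in KPC (1.41, adjusted p = 0.000124). Tuba1b, a tubulin with close paralogs, was higher by 1.38, Clic1, an intracellular chloride channel protein, by 1.47 and Rbms1, an RNA-binding protein, by 1.21. Anxa3, an annexin, was higher by 0.98 and S100a11, a calcium-binding protein, by 0.87, each 1 of 3 genes called on its list, of 8 annexins and 9 S100 proteins tested.

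Lysosomal enzymes had 17 of 45 genes higher and 2 lower, with a median of 0.60, against 6 higher and 0 lower without the 4 mice. Psap, the precursor of the saposins, was at 46.6, 77.2 and 90.9 CPM in WT and 149, 198 and 338 CPM in KPC (1.58, adjusted p = 0.000274). Ctss, the cathepsin of antigen-presenting cells, was at 46.1, 68.5 and 82.6 CPM in WT and 170.4, 288 and 361 CPM in KPC (2.04, adjusted p = 0.000763). The proton pump that acidifies lysosomes had 2 of 17 genes higher and 1 lower, with 17.6% called against 29.9% of all genes tested. The proteasome had 5 of 39 higher and 3 lower (1 of each without the 4 mice). Psma5, a subunit of its core, stood out at 10.2, 14.5 and 25.4 CPM in WT and 33.6, 51 and 60.5 CPM in KPC (1.67, adjusted p = 0.000141), while Psmb10, an immunoproteasome subunit, was lower, at 324, 466 and 583 CPM in WT and 39.5, 126 and 322 CPM in KPC (-1.64, adjusted p = 0.00253; 0.123 without the 4 mice). Immediate early genes had 8 of 14 higher and 0 lower (4 higher without the 4 mice), with Klf6, a zinc finger factor, at 0.92, and none of 8 circadian clock genes passed in edgeR, against 1 in DESeq2 and 2 at an unadjusted p under 0.05.

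Endothelial and adipocyte genes gave few calls. Of 15 endothelial genes 1 was higher, Pecam1, at 5.13, 20.4 and 37.4 CPM in WT and 14.4, 51.5 and 87.1 CPM in KPC (1.23, adjusted p = 0.0175; 0.644 without the 4 mice). Of 12 adipocyte genes 1 was lower, Lpl, the lipoprotein lipase, at 44.2, 112 and 136 CPM in WT and 27.3, 38.2 and 65.9 CPM in KPC (-1.36, adjusted p = 0.000434), and Adipoq did not pass (-1.19, adjusted p = 0.185). Of 3 lymphatic vessel genes Lyve1 and Ccl21a were higher. Lyve1 was higher by 1.57 (adjusted p = 0.00195; 0.121 without the 4 mice). None of 3 Schwann cell genes (1 in DESeq2 and 1 at an unadjusted p under 0.05) and none of 2 mesothelial genes (0 by either) passed in edgeR, and most genes of those lists did not pass the count filter.

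Mice of the KPC group differed in how far they lay from WT. The first principal component of the 13 libraries held 42.5% of the variance. The 6 WT mice were at -43.1 to -35.2 on it, KPC mouse 48 at -8.41, KPC mouse 210 at 13.1 and the other KPC mice at 33.0 to 55.0. The distance of each mouse from the mean of the other mice of its group, the root mean square over genes of log2 CPM, was 0.774 ± 0.0375 (SD, n = 6) in WT and 0.584 ± 0.127 (SD, n = 7) in KPC. The difference of -0.19 had a p of 0.0111 by a two-sided exact permutation test. Each distance uses the mean of the other mice of its group, so distances within a group are not independent. They were not computed anew in each arrangement, so this p and the next are a rough guide only. After all libraries were thinned to 294077 UMIs, the difference was -0.08 with an exact permutation p of 0.0921, which did not pass; acinar enzymes took a larger share of the thinned UMIs in WT, so the depth left for other genes was not equal. KPC mouse 48 had the largest distance, 0.828.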

How the data were processed

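Libraries from the pancreas of 18 mice were primed on the poly(A) tail from 20 ng of total RNA, with a sample index of 8 bases and a UMI of 10 bases, per the labels' protocols. The authors deposited 1 table of UMI counts per gene and mouse, without normalization. The submitters' processing notes name the builds GRCm38 and mm10 and the tools edgeR 3.36.0, limma 3.50.0 and R 4.1.2. Which aligner was used, and how UMIs were collapsed, is not given in the sources used here. UMIs limit the effect of amplification on the counts, and priming at the poly(A) tail makes them depend little on transcript length.

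The deposited counts were filtered with filterByExpr (minimum count 10, smallest group 5) and tested in edgeR 4.0.16 (R 4.3.3) with TMM scaling and the quasi-likelihood F test. All 18 mice in 3 groups entered the fit, the contrast was KPC minus WT, with Benjamini-Hochberg adjustment over 6920 genes and calls at 0.05. The text names Trp53 and the 15 called genes with the smallest p-values and the 10 with the largest differences in each direction, provided the higher group averaged 10 CPM or more. Acinar, macrophage, predicted, sex-linked, mitochondrially encoded and immune receptor segment genes were left out of those. Of each list it names up to 4 genes with the smallest p-values. Some genes that this rule names are not reported here. Hspa5, Calr, Dnajc3 and Hsp90b1, Tff1, and genes named only to complete a count were chosen after their values were seen. The members and lists were chosen with earlier results of these data known.

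Each label names a separate mouse, and no pair of libraries within a group agreed within sampling noise (over 36 pairs, chi-square per degree of freedom was 2.53 or more). Alternatives were RLE size factors, library totals only, TMM without acinar enzyme genes, DESeq2 1.42.0, limma-voom 3.58.1, no filter, a minimum count of 30, only the WT and KPC mice, libraries thinned to 294077 UMIs, the level of Y-linked genes as a covariate, and each mouse left out. Leaving out KPC mice 40, 89, 145 and 154 together was chosen after seeing the data.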

Additional observations from a re-analysis of the deposited data

Results flagged for a closer look

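Across the 143 genes given with values, each looked at in both groups, 22 of 286 sets of mice (7.69%) held 1 mouse far from the others by Dixon's test on log2 CPM, against about 1 in 20 by chance. KPC mouse 48 accounted for 5 of them and WT mouse 1213 for 4. In KPC mouse 48, Hspa5 was at 689 CPM against 212 to 330 in the other KPC mice, Calr at 466 against 187 to 276, Dnajc3 at 338 against 104 to 172 and Cdcp3 at 24 against 0 to 4.50, while Lims1 was at 31.2 against 52.5 to 68.3. In KPC mouse 43, Ccn2 was at 206 CPM against 27.0 to 54.0 and Vtn at 4.97 against 33.5 to 110.4.

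In WT mouse 1213, Adipoq and Ccr2 were at 0 CPM against 25.2 to 57.9 and 3.40 to 6.90 in the other WT mice, Cp was at 10.3 against 30.6 to 42.4, and Mmp14 was at 51.6 against 17.0 to 25.6. In WT mouse 1202, Bckdha was at 93.3 CPM against 128 to 153, Ndufb9 at 365 against 415 to 448 and Rac2 at 29.7 against 46.1 to 57.9. In WT mouse 1197, Cdcp3 was at 6.90 CPM against 33.9 to 61.9 and Magt1 at 169 against 204 to 227. WT mouse 1238 had Col8a1 at 0 CPM against 13.6 to 31.0 and Fyb at 45.5 against 25.8 to 31.0. WT mouse 1237 had Gas5 at 15.4 CPM against 31.0 to 44.8 and Phgdh at 287 against 146 to 181. WT mouse 69 had Ero1lb at 381 CPM against 229 to 273 and Srpr at 180.3 against 263 to 318.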

How the results depend on the processing

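The count of 2070 changed genes (1023 higher, 1047 lower) stayed within 1.5 times of its value with RLE size factors, TMM without acinar enzyme genes, DESeq2, only the WT and KPC mice in the fit, thinned libraries and the Y-linked covariate. Without each mouse in turn it ranged from 1745 (WT mouse 69) to 2310 (KPC mouse 48), with 812 to 1148 higher and 904 to 1162 lower. With library totals only, 5684 changed, 5508 higher and 176 lower. limma-voom gave 486 higher, so 31.3% of its calls were higher against 49.4%. Its higher calls were 18 for leukocyte kinases and adaptors (43 in edgeR), 3 for interferon-stimulated genes (15) and 1 for the NADPH oxidase (7). MHC class I had 5 (12), collagens 4 (8), elastic fibre genes 2 (10) and proteases 6 (14). Complement with 7 (10) and actin with 25 (31) kept more, and the medians of all these lists stayed positive. No filter gave 1565 higher. A minimum count of 30, under which 2391 genes were tested, gave 1136 changed, 604 higher and 532 lower. Without KPC mice 40, 89, 145 and 154, 728 changed, 385 higher and 343 lower. In thinned libraries the difference in distance was -0.080 with an exact permutation p of 0.0921.

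With library totals only, the differences of Hspa5 (0.46), Calr (1.15) and Dnajc3 (0.13) turned positive. So did every negative list median but those of acinar enzymes, acinar identity, ATF4 targets and serine and one-carbon genes, among them amino acid transporters (0.34), gastric and mucin metaplasia (0.38), islet (0.057), ER chaperones (0.66), ER stress and degradation (0.48), translocon (0.46), N-glycan (1.11), p24 receptors (0.41), COPII and COPI (0.85), translation factors (0.98), tRNA synthetases (0.68), other amino acid metabolism (0.053), the tricarboxylic acid cycle (1.07), the respiratory chain (0.69), mitochondrially encoded genes (0.70), fatty acid oxidation (0.92) and glutathione (1.17). The median of all genes was 1.41 under that scaling. Without the 4 KPC mice the B cell median was -0.71, which followed from picking them by B cell markers, and the T and NK cell median was -0.61. Among shorter lists, that fit called 1 islet gene lower and 1 higher (4 lower with all mice), 1 p24 receptor lower (5 with all mice), 0 genes of the MAP kinase cascade or glycolysis (4 of each with all mice) and 3 p53 targets lower with 0 higher.

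With library totals only, Eif2ak3, Eif4ebp1, Fkbp2, Gstm2, Insig1, Lpl, Magt1, Mars1, Nars, Ndufb9, Odc1, P4hb, Pdk1, Plk2, Psmb10, Reg1, Rplp1, Sec62, Srpr, Tmem63b and Uqcrq no longer passed. With limma-voom Ccn2, Col8a1, Cxcl14, Dclk1, Gimap5, Hvcn1, Ncf4, Onecut2, Pecam1, Phlda1, Rac2, Thbs4 and Top2a did not, without a filter Hspa5 and Reg1, and with TMM without acinar genes Bax. Prom1 passed with DESeq2, thinned libraries, the Y-linked covariate, a minimum count of 30, and without KPC mouse 40, 89, 145 or 154. Without those 4 mice together, further calls that were lost were those of Edem2, Ero1lb, Gamt, Phgdh, Slc38a5, Slc39a5 and Vtn. The causes were not tested. No paired analysis was possible because the mouse numbers in the labels are not shared between groups. Depth limits genes near 10 CPM, at which the smallest library holds only a few UMIs.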

Other observations

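Further lists covered DNA sensing, RNA processing, adhesion, hypoxia and sterol synthesis. Of 3 tested PYHIN DNA sensors 2 were higher, Mndal at 6.81, 18.9 and 41.0 CPM (lowest, median and highest) in WT and 34.8, 97.7 and 116 CPM in KPC (1.97, adjusted p = 0.000573 by edgeR) and Ifi203 by 2.46, and neither passed without KPC mice 40, 89, 145 and 154 (adjusted p = 0.0765 and 0.0925). Of 50 genes of splicing and RNA binding 10 were higher and 0 lower (0 higher without those mice), among them Snrpg, of the spliceosome core, by 1.00 (adjusted p = 0.00735; 0.28 without the 4 mice). Of 22 integrin and focal adhesion genes 7 were higher and 2 lower (4 and 0 without the 4 mice), with Lims1, an adaptor of integrin adhesions, higher by 1.44 (adjusted p = 0.00156). Of 15 hypoxia targets 4 were higher and 3 lower (0 and 1 without the 4 mice), with Epas1, a hypoxia-inducible factor, higher by 1.08 (adjusted p = 0.00461; 0.0987 without the 4 mice). Of 23 genes of cholesterol and fatty acid synthesis 1 was higher and 1 lower, and the latter, Insig1, which retains the sterol sensor in the ER, was at 25.2, 33.4 and 58.6 CPM in WT and 4.97, 10.1 and 24 CPM in KPC, without overlap (-1.67, adjusted p = 0.00143). Gas5, a long non-coding RNA that hosts small nucleolar RNAs, was higher by 0.91 (adjusted p = 0.00411), also without overlap.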
